A study of Marchantia polymorpha with 6 samples.

Results

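MpPTB4 is the gene with the identifier Mp4g16560 in the deposited counts of Marchantia polymorpha, a liverwort whose plant body is a flat thallus. It is 1 gene of 19472 with a row in every library, and it was selected by its symbol, which places it among phosphate transporters, and by its reads, which were higher with arsenite and had a set order over the replicates of each group. Those reads chose the gene, so its own levels are given here as a description without a test. The plants, labelled Cam1 for a male accession used as wild type, were kept at 21 °C on Gamborg medium at 0.5 strength. Poly(A) RNA of the thallus was sequenced from 3 samples grown with 2.5 µM sodium arsenite, in which arsenic is trivalent, and from 3 control samples grown on the same medium with 0 µM. The labels give no age, no length of exposure and no statement that replicates were separate cultures, so p-values measure only the spread between these samples. The title of the series concerns the arsenite transporter ACR3, and arsenite-grown thalli were compared with untreated ones.

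Plants take up phosphorus as inorganic phosphate, through carriers in the plasma membrane. Transporters named PTB (phosphate transporter B) are related to the sodium-coupled phosphate carriers of fungi and algae and occur in mosses and liverworts. Arsenate resembles phosphate and enters plant cells through phosphate carriers, whereas arsenite, the form supplied here, is known to pass through aquaporins of the NIP class.

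Thalli grown with arsenite held 2.62 times the mean MpPTB4 transcript level of control thalli. Arsenite replicates 1, 2 and 3 held 1494, 1103 and 688 MpPTB4 reads, and control replicates 1, 2 and 3 held 694, 482 and 314. Levels were scaled to reads per 1000000 mapped to tested genes, with each library total adjusted by its TMM factor (CPM). The arsenite replicates held 47.7, 37.3 and 26.4 CPM and the control replicates 14.2, 18.4 and 9.85 CPM. All 3 arsenite libraries lay above all 3 controls, and the lowest arsenite library, replicate 3, was 1.44 times the highest control, replicate 2. The control mean was 14.2 ± 4.29 CPM and the arsenite mean 37.1 ± 10.6 CPM (SD, n = 3 each). In the fit over all genes the difference was 1.39 on the log2 scale. With each library left out in turn, this value ran from 1.19 without control replicate 3 to 1.62 without control replicate 2, and its direction was fixed by the choice of the gene.

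MpPTB4 varied between replicates, an order that was part of its selection. Exact 95% Poisson intervals, which cover counting error only, ran from 45.3 to 50.2 CPM in arsenite replicate 1 and from 24.5 to 28.5 CPM in arsenite replicate 3, and from 16.8 to 20.1 CPM in control replicate 2 and from 8.79 to 11 CPM in control replicate 3. The intervals of the 6 libraries did not overlap within either group. The coefficient of variation was 30.3% in controls and 28.6% with arsenite, against medians of 12.0% and 13.2% for the 1824 tested genes with a control mean within 0.5 log2 units of that of MpPTB4. In controls 36.3% of the 13544 tested genes had a lower mean CPM than MpPTB4, and with arsenite 59.0%, so the gene moved from below to above the middle of the tested genes. These CPM are not divided by transcript length, so the position is that of its reads.

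**Figure D1:**
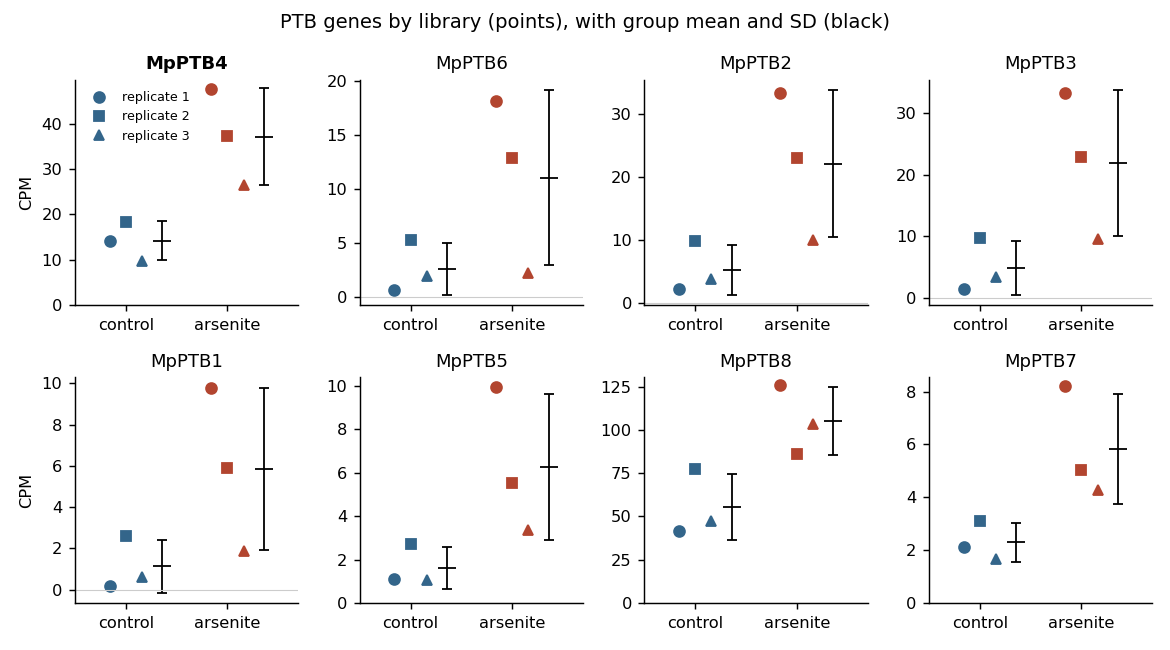
Transcript level (CPM, linear axis) of the 8 PTB genes in each library. Symbols mark the replicates, blue points are controls, red points are arsenite samples, and the black bar gives the group mean with its SD. MpPTB4 ran from 9.85 to 18.4 CPM in controls and from 26.4 to 47.7 CPM with arsenite, and arsenite replicate 1 is the highest library in every panel.

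Library totals ran from 26579324 to 47532310 reads. By total, arsenite replicates stood in the order 1, 2, 3, the same order as for MpPTB4, and control replicates in the order 1, 3, 2, against 2, 1, 3 for MpPTB4. Over all tested genes 4.18% passed at an adjusted p below 0.05, 2.04% upward and 2.14% downward. This number changed with the libraries used: 566 genes passed with all 6, but 338, 39 or 461 without arsenite replicate 1, 2 or 3. Without control replicate 1, 2 or 3 it was 103, 176 or 148. Each such run also has fewer samples, and the part of this in the lower counts was not tested. MpNOP1, a gene of air chamber formation, had 84.6 to 114 CPM in controls and 105 to 142 CPM with arsenite. Its reads alone do not establish that the tissue was thallus. In bulk tissue a change in the number of cells of a type and a change in RNA per cell cannot be told apart.

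Rhizoids, the filaments that anchor the thallus and absorb from the medium, had 1 marker matched of 4 listed. MpRSL1 (MpBHLH14 in the table), a transcription factor needed for rhizoids, had 19.5, 19.9 and 22.8 CPM in arsenite replicates 1, 2 and 3 and 13.6, 12.1 and 14.8 CPM in control replicates 1, 2 and 3. Its groups did not overlap (log2 fold change 0.62 ± 0.14 SE, adjusted p = 0.0533). Its highest arsenite library was replicate 3, the lowest for MpPTB4. Summed over 4 markers of oil body cells, levels were 58.8 to 82.6 CPM in controls and 35.2 to 60.0 CPM with arsenite. Most of this sum was MpC1HDZ, with 40.4 to 66.3 and 29.3 to 49.3 CPM (groups overlapping, adjusted p = 0.253). Over 4 markers of sexual organs and germ line the sums were 17.4 to 22.2 CPM in controls and 8.53 to 17.6 CPM with arsenite. Most of that was MpFGMYB, with 14.1 to 17.4 and 7.14 to 15.8 CPM (groups overlapping, adjusted p = 0.327). In the same list MpBNB (MpBHLH20 in the table), needed for germ cells to form, fell from 1.60, 1.57 and 3.39 CPM in control replicates 1, 2 and 3 to 0.287, 0.305 and 0.192 CPM (log2 fold change -3.03 ± 0.45 SE, adjusted p = 0.0193, but 0.0514, 0.0889 and 0.0522 without arsenite replicate 1, arsenite replicate 2 or control replicate 1). MpSYP12B, a syntaxin of oil body cells, fell by 1.41 on the log2 scale (adjusted p = 0.0462), a call that ended without any 1 of the 6 libraries (adjusted p from 0.064 to 0.146) and with the replicate block (0.0834). They were the 1 of 3 and the 1 of 4 tested markers of their lists that passed, beside 2.14% of all tested genes that fell. MpPRM, a protamine of sperm, was at 0 reads in all libraries except control replicate 1. Over 2 gemma cup markers the sums were 34.5 to 41.1 CPM in controls and 33.4 to 58.5 CPM with arsenite. The part of any of these cell types in the MpPTB4 level was not tested.

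MpPTB4 lies at one end of a row of 6 adjacent PTB genes on chromosome 4, in the order MpPTB4, MpPTB6, MpPTB2, MpPTB3, MpPTB1 and MpPTB5, by a table of the MpTak2_v7.1 assembly. MpPTB8 is elsewhere on chromosome 4 and MpPTB7 on chromosome 8. The spans of the 6 do not overlap in that table. Like MpPTB4, the other 5 peaked in arsenite replicate 1 and, within the control group, in replicate 2. The lowest control differed, since control replicate 1 was the lowest control for MpPTB6, MpPTB2, MpPTB3 and MpPTB1, while control replicate 3 was the lowest for MpPTB4 and MpPTB5.

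MpPTB2 had 33.4, 23.0 and 10.1 CPM in arsenite replicates 1, 2 and 3 and 2.13, 9.78 and 3.86 CPM in control replicates 1, 2 and 3. The groups were apart, but arsenite replicate 3 and control replicate 2 nearly met (log2 fold change 2.09, 95% interval from 0.60 to 3.58, adjusted p = 0.119). MpPTB5 had 9.93, 5.52 and 3.34 CPM with arsenite and 1.09, 2.71 and 1.04 CPM in controls, again without overlap (log2 fold change 1.98, interval from 0.72 to 3.23, adjusted p = 0.0918). MpPTB6 had 18.1, 12.9 and 2.23 CPM with arsenite and 0.635, 5.31 and 1.94 CPM in controls, so that control replicate 2 exceeded arsenite replicate 3 (log2 fold change 2.10, interval from -0.04 to 4.25, adjusted p = 0.244). MpPTB3 and MpPTB1 overlapped between groups in the same way, by control replicate 2 and arsenite replicate 3. Their log2 fold changes were 2.20 (interval from 0.45 to 3.94, adjusted p = 0.151) and 2.42 (interval from 0.18 to 4.66, adjusted p = 0.205). Without control replicate 2 the log2 fold changes became 2.90 for MpPTB2, 2.56 for MpPTB5, 3.13 for MpPTB6, 3.22 for MpPTB3 and 3.9 for MpPTB1, and over all 6 runs with a library left out the lowest of any of these genes was 1.5, for MpPTB5 without arsenite replicate 1. With all libraries the fitted differences of these 5 genes, from 1.98 to 2.42, were larger than that of MpPTB4, but their intervals include it, and no test of a difference between the genes was made.

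Outside the row, MpPTB8 had 126, 86.3 and 103 CPM in arsenite replicates 1, 2 and 3 and 41.5, 77.5 and 47.4 CPM in control replicates 1, 2 and 3. It was higher in every arsenite library than in any control (log2 fold change 0.92, interval from 0.32 to 1.53, adjusted p = 0.0972), and passed, at adjusted p = 0.0488, without control replicate 2. MpPTB7 had 8.20, 5.04 and 4.26 CPM with arsenite and 2.11, 3.10 and 1.66 CPM in controls (log2 fold change 1.36, interval from 0.54 to 2.17, adjusted p = 0.0791). Its libraries stood in the order seen for MpPTB4 in both groups.

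Together the 7 other PTB genes held 49.0, 111 and 59.9 CPM in control replicates 1, 2 and 3 and 238, 161 and 134 CPM in arsenite replicates 1, 2 and 3. This sum averaged 73.2 ± 33.0 CPM for controls and 178 ± 54.0 CPM for arsenite samples (SD, n = 3 each), a ratio of 2.43 with no overlap between groups. The sum over the 5 adjacent genes other than MpPTB4 did overlap, with 27.1 CPM in arsenite replicate 3 and 30.2 CPM in control replicate 2. Sums do not depend on how reads are divided among the copies they include. They would change if reads matching several copies were dropped or counted repeatedly, and the handling of such reads is not stated.

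Reads of MpPTB4 made up a share of the reads of the 6 adjacent genes that varied widely between libraries. Arsenite replicates 1, 2 and 3 had 31.3%, 34.8% and 49.4%, and control replicates 1, 2 and 3 had 72.5%, 37.9% and 47.5%. Control replicate 1 stood apart, with 694 of 957 reads on MpPTB4 (95% Clopper-Pearson interval from 69.6% to 75.3%). Within each group the share was lowest in the library with the highest summed level of the row, arsenite replicate 1 at 152 CPM and control replicate 2 at 48.6 CPM. Of the reads on all 8 PTB genes MpPTB4 held 17.3% ± 1.3 with arsenite and 17.0% ± 4.80 in controls (SD, n = 3 each), and groups overlapped.

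**Figure D2:**
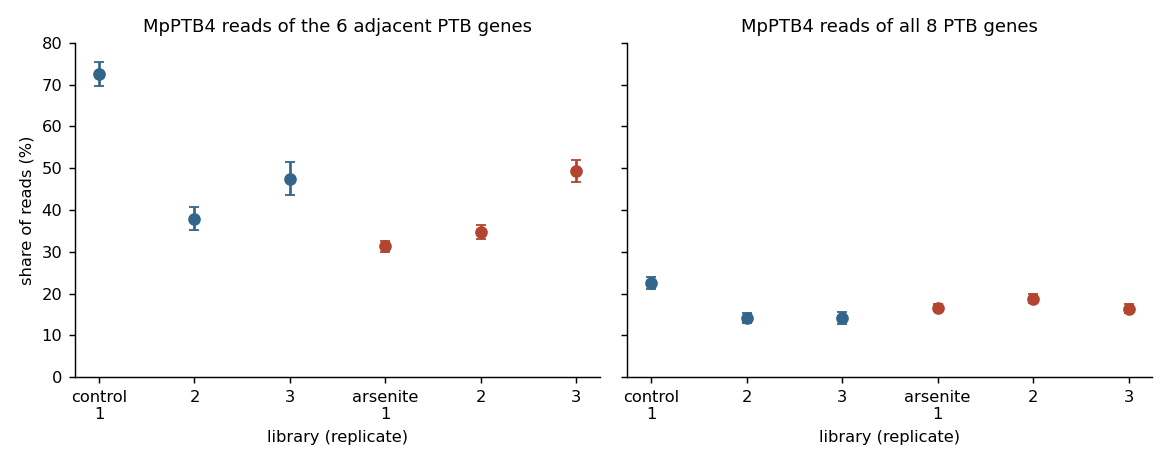
Share of reads on MpPTB4 (%) among the 6 adjacent PTB genes (left) and all 8 PTB genes (right) in each library, with exact binomial 95% intervals for counting error. Blue points are controls and red points arsenite samples. In the left panel control replicate 1 is highest at 72.5% and arsenite replicate 1 lowest at 31.3%.

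MpPTB2 and MpPTB3 had almost the same number of reads in several libraries, with 1047 and 1042 in arsenite replicate 1, 679 and 674 in arsenite replicate 2, and 256 each in control replicate 2. Control replicate 1 departed from this, with 104 and 66 reads. Reads of MpPTB4 ranged from 1.43 times those of MpPTB2 in arsenite replicate 1 to 6.67 times in control replicate 1. The ratio of MpPTB4 to MpPTB2 therefore differed between libraries of 1 group as well as between groups. Whether MpPTB2 and MpPTB3 share reads was not tested, so their values may not be independent where both are counted below.

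Matched genes beside the row had little difference between groups or almost no reads. The 3 genes that the table places next before MpPTB4 have no matching identifier in the files and are not analysed here. Mp4g16510, the nearest matched gene on that side, had 8.65, 8.53 and 5.07 CPM in arsenite replicates 1, 2 and 3 and 7.75, 7.76 and 8.5 CPM in control replicates 1, 2 and 3 (log2 fold change -0.11, interval from -0.66 to 0.44, adjusted p = 0.827). Mp4g16490 had a log2 fold change of 0.09 (interval from -0.57 to 0.76, adjusted p = 0.880), and Mp4g16500, between these, had at most 2 reads in a library. Beyond MpPTB5, Mp4g16620, Mp4g16625 and Mp4g16630 held at most 12 reads in a library and were below the filter on low counts.

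A list of 16 further phosphate genes, matched by symbol, held the 7 PTB genes above and 9 others, and 15 of the 16 had enough reads to test. Of these 15, 0 passed in either direction with edgeR, beside 2.04% of all tested genes that rose and 2.14% that fell. At an unadjusted p below 0.05, 7 were higher and 0 lower, where 10.8% of all tested genes were higher. With DESeq2 6 passed upward (5.5% of all genes with an adjusted p), namely MpPTB1, MpPTB2, MpPTB5, MpPTB7, MpPTB8 and MpGDPDL, and with voom 0 passed (1.99% of all tested genes did so upward). Groups did not overlap and arsenite was higher for 5 of the 15, against 13.8% of all tested genes, and lower for 0, against 14.4%. The median log2 fold change was 0.82 over the 15 genes, beside -0.004 over all tested genes, and it was 2.09 over the 7 PTB genes and 0.07 over the 8 others. Without arsenite replicate 3 the median over the 15 was 0.53.

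**Figure D3:**
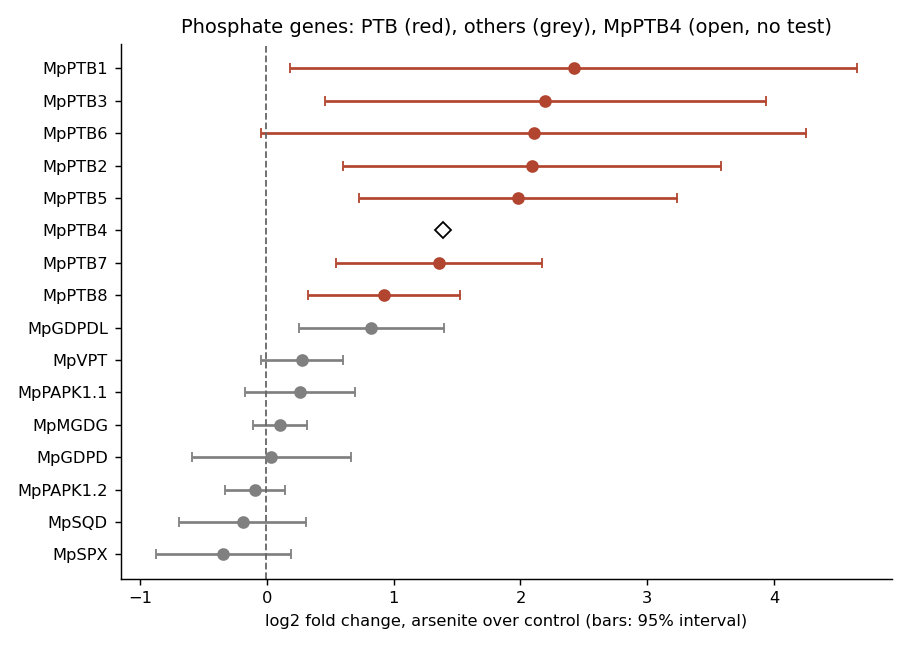
Log2 fold change, arsenite over control, of the 16 tested phosphate genes. Bars are 95% intervals of the fit, red points are PTB genes, grey points the other genes, the open diamond is MpPTB4 without an interval, and the dashed line is the median of all tested genes. The 7 other PTB genes lie between 0.92 and 2.42 and the 8 remaining genes between -0.34 and 0.82.

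Of the phosphate genes outside the PTB family, MpSPX, of the proteins that sense phosphate status, had 296, 215 and 159.6 CPM in arsenite replicates 1, 2 and 3 and 321, 286 and 245 CPM in control replicates 1, 2 and 3. Its groups overlapped (log2 fold change -0.34, interval from -0.88 to 0.19, adjusted p = 0.427). MpVPT, named for vacuolar phosphate transport, had 154, 140.4 and 191 CPM with arsenite and 129, 146 and 126 CPM in controls, also overlapping (log2 fold change 0.28, interval from -0.05 to 0.60, adjusted p = 0.302). The lipid synthesis genes MpMGDG and MpSQD, whose products make the galactolipids and sulfolipids that replace phospholipids in phosphate-starved plants, had log2 fold changes of 0.10 (interval from -0.11 to 0.32) and -0.19 (interval from -0.69 to 0.31). The glycerophosphodiester phosphodiesterase MpGDPD, of a family that cleaves glycerophosphodiesters, had a log2 fold change of 0.04 (interval from -0.59 to 0.66). MpGDPDL, named as a GDPD-like gene, had 144, 149.9 and 251 CPM with arsenite and 83.7, 117 and 107 CPM in controls (log2 fold change 0.82, interval from 0.26 to 1.39, adjusted p = 0.110), with groups apart and arsenite replicate 3 the highest, where MpPTB4 was lowest. MpPAPK1.1, MpPAPK1.2 and MpPAPK1.3 entered by the letters of their symbols alone. The first 2 had log2 fold changes of 0.26 and -0.09, and MpPAPK1.3 was below the filter with at most 0.225 CPM. Without these 3 the median of the 13 tested genes was 0.92.

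Other nutrient transporters with a matching symbol and enough reads were 39 genes, of which 24 are NPF, 8 AMT (ammonium), 5 ZIP (zinc and iron), 1 AKT and 1 HKT. With edgeR 0 rose and 2 fell, beside 2.04% and 2.14% of all tested genes. At an unadjusted p below 0.05, 4 were higher and 13 lower, beside 10.8% and 10.3%. DESeq2 called 1 higher and 9 lower, beside 5.5% and 4.75%, and voom 0 and 2, beside 1.99% and 1.93%. Their median log2 fold change was -0.22. MpNPF5, of the nitrate and peptide transporter family, fell, with 14.9 ± 4.76 CPM in controls against 3.15 ± 0.674 CPM (SD, n = 3 per group, log2 fold change -2.24 ± 0.28 SE, adjusted p = 0.0129), and MpNPF24, of the same family, had 10.4 ± 0.412 and 2.84 ± 0.726 CPM (log2 fold change -1.88 ± 0.23 SE, adjusted p = 0.0123). Without arsenite replicate 2 both calls ended (adjusted p = 0.0754 and 0.0661), and that of MpNPF24 also without control replicate 1 (0.055). Among 6 aquaporins 1 rose with edgeR, MpTIP2 (log2 fold change 1.37, adjusted p = 0.0219), and 1 fell, MpNIP (-0.81, adjusted p = 0.0322), beside 2.04% and 2.14% of all tested genes. At an unadjusted p below 0.05, 3 aquaporins were higher and 1 lower, beside 10.8% and 10.3%. DESeq2 called 3 higher and 1 lower, beside 5.5% and 4.75%, and voom 2 and 1, beside 1.99% and 1.93%. The edgeR call of MpTIP2 ended without arsenite replicate 2 or any 1 control (adjusted p from 0.0643 to 0.0801), and that of MpNIP without any 1 library (0.0553 to 0.0993) or with the replicate block (0.0523).

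Likeness to MpPTB4 was measured by Pearson's r of log2 CPM over the 6 libraries, as a description, for 10629 genes with a mean of at least 5 CPM. Of these, 240 (2.26%) had an r above 0.9. Among 2123 of them with a symbol outside the PTB family, the most alike was MpGH16.32, a cell wall glycosyl hydrolase, with r = 0.986, 18.3, 15.3 and 13.9 CPM in arsenite replicates 1, 2 and 3, and 9.49, 12.2 and 8.59 CPM in control replicates 1, 2 and 3. Next were MpABC40 (r = 0.984), the glycosyltransferase MpGT61.3 (0.983), the vacuolar membrane aquaporin MpTIP2 (0.977) and MpGH16.19 (0.973). MpTIP2 had 135, 94.6 and 85.4 CPM in arsenite replicates 1, 2 and 3 and 45.0, 44.7 and 32.7 CPM in control replicates 1, 2 and 3, with groups apart as for MpPTB4. Among PTB genes r was 0.987 for MpPTB7 and 0.973 for MpPTB5, and 0.804 to 0.912 for the others, while MpSPX had -0.187.

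Since both groups differ in MpPTB4, such an r depends on the difference between groups as well as on the replicates within them. For the genes named above as most alike in level, r on deviations from the group means ran from 0.899 for MpTIP2 to 0.971 for MpABC40. MpABC40 had a log2 fold change of only 0.32 (adjusted p = 0.190), but its groups did not overlap. It had 34.9 to 42.7 CPM in controls and 43.5 to 50.9 CPM with arsenite. Since r does not measure the size of a difference, its r for levels also depends on the difference between groups. After the group mean was taken from each library, the most alike genes with a symbol were MpRBR, the retinoblastoma-related regulator of the cell cycle (r = 0.998), MpVHA-a, a subunit of the vacuolar proton pump (0.993), the histone deacetylase MpHDAC6 (0.986), Mp1R-MYB17 (0.982) and MpDOXC2 (0.982). MpRBR had 198, 173 and 144 CPM in arsenite replicates 1, 2 and 3 and 214, 241 and 179 CPM in control replicates 1, 2 and 3, the same order within each group as MpPTB4 but with overlapping groups. Of the 10629 genes, 613 (5.77%) had an r above 0.9 on these deviations, which have few independent values and share each library's depth and scaling. With library totals as the only scaling, r was 0.896 for MpVHA-a and 0.935 for MpHDAC6. On deviations MpPTB7 had r = 0.949, MpPTB5 0.911 and MpSPX 0.814.

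**Figure D4:**
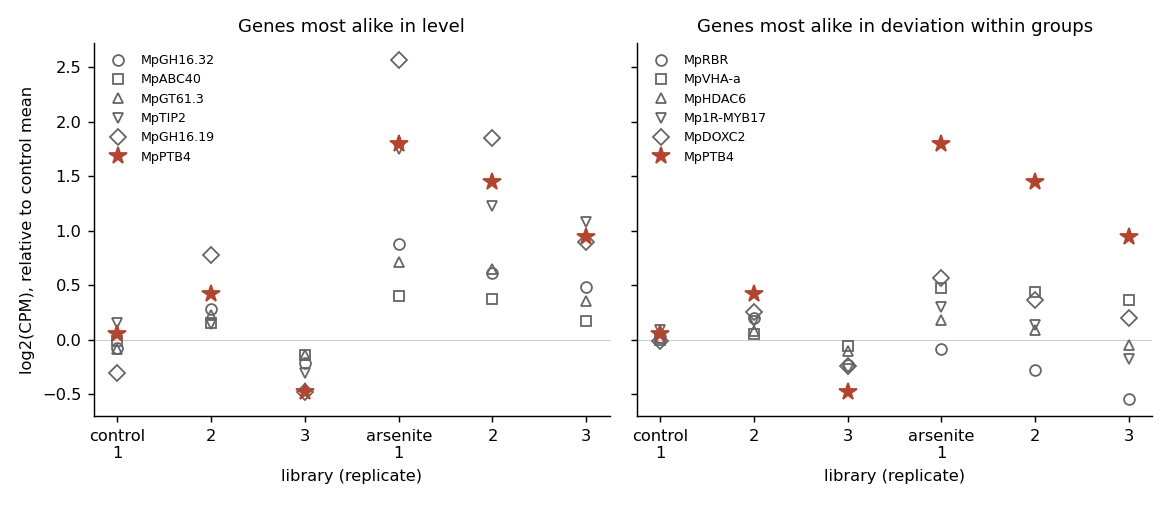
Log2 CPM relative to the control mean in each library for MpPTB4 (red stars) and, as open grey symbols, the 5 genes with a symbol that are most alike in level (left) and in deviation from the group means (right). On the left MpTIP2 lies close to MpPTB4 in arsenite replicates 1 and 3, and on the right MpRBR follows the order of the replicates but lies below its control mean in all 3 arsenite libraries.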

How the data were processed

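The authors deposited raw counts of reads on each gene, in a file per sample without header or summary lines. The file names give htseq-count on Galaxy as the counter, while for aligner, versions, build, annotation, strand setting and treatment of multiply placed reads the entry is: not given in the sources used here. The table of names, of assembly MpTak2_v7.1, gave symbols and gene order, and in it 17671 of 18391 locus tags (96.1%) matched a file identifier by number. No coordinates or sequences are printed. Groups came from the sample titles. Counts of all genes were fitted with edgeR 4.0.16 (R 4.3.3) by the quasi-likelihood test, with the default filter on low counts, TMM factors and Benjamini-Hochberg adjustment over 13544 genes at a threshold of 0.05. Every adjusted p is from that test unless DESeq2 1.42.0 or voom (limma 3.58.1) is named. Standard errors were derived from the F statistic, and log2 CPM used a prior count of 2. No 2 libraries of a group agreed within sampling noise (chi-square per degree of freedom at least 39.4). MpPTB4, the phosphate and marker lists and the rule for named genes (all list members, the 5 most alike genes by each measure, 3 neighbours on each side, the 2 smallest adjusted p of each other list) were chosen with earlier results of these data known. Markers were named where they moved, after their values were seen. Alternatives were other tools, scalings and filters, a replicate block, a threshold of 0.01 and leaving out each library.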

Additional observations from a re-analysis of the deposited data

How the results depend on the processing

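The MpPTB4 log2 fold change, whose direction the choice of the gene fixes, ran from 1.19 to 1.62 with a library left out and from 1.37 to 1.42 with other tools, scalings, filters or the block. The median over the other phosphate genes ran from 0.53 to 0.95 with a library left out. Genes called over the whole table numbered 1530 with DESeq2, 57 at a threshold of 0.01, and 39 to 461 with a library left out, and counts for the phosphate list with MpPTB4 were 7, 0, and 0 to 1 under the same changes. These counts include the gene chosen on this contrast and support nothing. Without it the list had 0 calls, and 6 with DESeq2, 1 (MpPTB8) without control replicate 2 and 0 under the other changes, the block included. With the replicate number as a replicate block 364 genes were called. Same-numbered libraries deviated from their group means with correlations of 0.01, -0.11 and 0.19, so the numbers are not taken as pairs, and arsenite replicate 1 correlated best with control replicate 2 (0.41). With a library left out, fold changes near 0 turned sign for MpKAR (-0.022 to 0.45), MpGCAM1 (-0.15 to 0.48), MpGDPD (-0.17 to 0.33), MpSQD (-0.32 to 0.016), Mp4g16490 (-0.24 to 0.29) and Mp4g16510 (-0.22 to 0.11), and so did the difference in the MpPTB4 share of all PTB reads, 0.333 percentage points with all libraries and -1.09 to 3.10 with 1 left out. The share per coding length was not run, as no protein lengths were used here. The causes of these shifts were not tested. The share, the r values under other scalings and the list without PAPK genes were added after seeing the data. The other rhizoid markers have no symbol match and were not analysed here.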
